A study of Mus musculus with 74 samples.

Results

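Chemokines and their receptors were followed in the L4 dorsal root ganglion (DRG) of the mouse, as 54 genes among the 53379 counted. A gene belonged to the set if it was protein-coding, if its symbol began with Ccl, Ccr, Cxcl, Cxcr, Cx3c, Xcl, Xcr or Ackr (followed by a digit for the first 4), and if at least 1 read fell on it in a whole DRG library. Of 60 protein-coding genes with such a symbol, 6 had no read in whole DRG (Ccl19, Ccl21b, Ccl27b, Cxcl3, Cxcl15 and Cxcr1). The 54 genes comprised 20 CC ligands, 10 CXC ligands, 2 CX3C or XC ligands, 11 CC receptors, 5 CXC receptors, 2 CX3C or XC receptors and 4 atypical receptors. Whole L4 DRG came from wild type female C57BL/6 mice of 10 to 12 weeks, 4 uninjured (Ctrl in the labels) and 4 at 1 day after spinal cord injury (SCI), a T9/10 dorsal hemisection, with 1 library of rRNA-depleted RNA per mouse. Dorsal column sensory neurons were sorted by fluorescence-activated cell sorting (FACS) as YFP-positive cells from dissociated L4 DRG of female mice carrying the Thy1YFP16 transgene, aged 10 to 20 weeks, in which a Thy1 promoter drives YFP in a part of the neurons. The FACS mice were 6 naive and 4 in each of 4 injured groups, at 1 or 3 days after SCI or after sciatic nerve injury (SNI, a crush), and each gave 3 wells of about 100 cells. Whole DRG libraries held 21959030 to 44493319 reads on genes, and the summed wells of a FACS mouse held 30518187 to 83599972.

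Chemokines are small secreted proteins that guide the movement of cells, mostly leukocytes, along gradients. They are named by the spacing of their first cysteines (C, CC, CXC, CX3C) and act through G protein-coupled receptors, while atypical receptors bind and remove or carry chemokines without that signal. In the ganglion, resident macrophages carry the fractalkine receptor Cx3cr1, and Cxcl12 with its receptor Cxcr4 is known from vessels, glia and sensory neurons.

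Whole DRG of uninjured mice held a few chemokine genes at moderate levels and most of them near the limit of detection. Levels per length, as reads per 1000000 reads on genes (CPM) per kilobase of exon, were highest for Ackr1, the Duffy receptor that binds many inflammatory chemokines, with a mean of 19.2. Cxcr4 followed with 9.79, its ligand Cxcl12 with 4.74 and the eosinophil attractant Ccl11 with 3.48. The epithelial ligand Ccl27a stood at 1.99 CPM per kilobase and its receptor Ccr10 at 1.49. Ackr3, the second receptor for Cxcl12, and Cx3cr1 were level at 1.37, above the Cx3cr1 ligand Cx3cl1 with 1.04. The monocyte receptor Ccr2 at 1.02, the Cxcr6 ligand Cxcl16 at 0.950 and the Ccr2 ligand Ccl12 at 0.896 completed the 12 highest. At the other end, 20 of the 54 genes had a mean under 0.1 CPM, and 26 reached the mean of 10 reads over the 8 libraries that was required for a test.

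Between uninjured and SCI mice, 6 of the 26 tested chemokine genes changed at an adjusted p-value under 0.1 (edgeR quasi-likelihood F-test, Benjamini-Hochberg over all 17616 genes tested), against 2.32% of all genes. The ligands Ccl6 and Ccl9 and the receptor Ccr1 rose, against 1.38% of all genes that rose. Cxcl12, Cxcr4 and Cx3cr1 fell, against 0.937% of all genes that fell. The median log2 fold change over the 26 was 0.24, with 18 above 0 and 8 below, and over all genes tested it was 0.01. In 7 of the 26 genes the CPM of the SCI and uninjured mice did not overlap, 4 higher and 3 lower after SCI, against 11.0% of all genes. A change in bulk DRG can come from the number of cells of a type or from the RNA in each cell, and the 2 cannot be told apart here.

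Among the CC ligands, 2 of the 10 tested rose. Ccl6, a ligand of Ccr1 made by myeloid cells (chr11:83587882-83593087, minus strand, GRCm38), was at 0.749, 0.608, 1.05 and 0.682 CPM in the uninjured mice and at 4.64, 4.42, 3.89 and 4.09 CPM in the SCI mice. Every SCI mouse exceeded every uninjured mouse by a wide gap (log2 fold change 2.46, standard error 0.18, edgeR adjusted p = 0.000437). Its neighbour Ccl9 (chr11:83572919-83578636, minus strand), also a Ccr1 ligand, was at 0.936, 1.08, 1.28 and 0.970 CPM in uninjured mice and 2.89, 3.46, 2.34 and 2.79 CPM after SCI. These groups did not overlap either, at means of 1.07 ± 0.156 and 2.87 ± 0.461 CPM (SD, n = 4 each, log2 fold change 1.41, standard error 0.17, edgeR adjusted p = 0.00635). Both lie in the run of 11 CC ligand genes of the set on chromosome 11, between bases 82035571 and 83664683. The other 5 genes of the run that were tested did not pass in edgeR or DESeq2, with 0 of them at an unadjusted edgeR p-value under 0.05, while Ccl1, Ccl3, Ccl4 and Ccl5 had too few reads for a test. The monocyte attractant Ccl2 had means of 0.788 ± 0.236 and 0.965 ± 0.154 CPM (SD, n = 4 each, log2 fold change 0.24, adjusted p = 0.699), and Ccl7 had 0.550 ± 0.298 and 0.330 ± 0.0560 (log2 fold change -0.82, adjusted p = 0.359, both edgeR). Ccl8 stood at 1.08 CPM in SCI mouse 1 and between 0.187 and 0.293 CPM in the other 7 mice (log2 fold change 0.86, standard error 0.53, edgeR adjusted p = 0.493). Ccl11, Ccl12 and Ccl27a had log2 fold changes of 0.28, 0.05 and 0.05, with edgeR adjusted p-values of 0.348, 0.962 and 0.889. Ccl28, the other ligand of Ccr10, was at 0.24 (adjusted p = 0.747) and Ccl25, the thymic ligand of Ccr9, at 0.31 (adjusted p = 0.497).

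Ccr1, the receptor for both of the ligands that rose (chr9:123962124-123968692, minus strand), was at 0.421, 0.923, 0.628 and 0.603 CPM in uninjured mice and at 1.21, 2.10, 2.20 and 1.17 CPM after SCI. The lowest SCI mouse lay above the highest uninjured mouse (log2 fold change 1.35, standard error 0.29, edgeR adjusted p = 0.0595). The counts were low, from 9 to 95 reads per mouse. The other CC receptors tested did not pass. Ccr2 had the same mean in both groups, 6.89 ± 0.926 and 6.89 ± 0.745 CPM (SD, n = 4 each, adjusted p = 0.990 by edgeR). Ccr10, the receptor of Ccl27a and Ccl28, had a log2 fold change of 0.31 (edgeR adjusted p = 0.335).

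The CXC genes that changed were a ligand and its receptor, and both fell. Cxcl12 (chr6:117168535-117181367, plus strand) was at 38.3, 37.6, 41.3 and 37.8 CPM in uninjured mice and at 24.7, 25.0, 32.9 and 21.99 CPM after SCI. The SCI mice lay below all uninjured mice, with SCI mouse 3 closest to them (log2 fold change -0.56, standard error 0.11, edgeR adjusted p = 0.0464). Cxcr4 (chr1:128588199-128592293, minus strand) was at 15.3, 19.2, 18.1 and 18.2 CPM in uninjured mice and at 12.2, 14.4, 12.1 and 11.7 CPM after SCI. Here too the groups did not overlap, and uninjured mouse 1 and SCI mouse 2 came closest (log2 fold change -0.49, standard error 0.10, edgeR adjusted p = 0.0525). Ackr3, which takes up Cxcl12, ranged over 3.51 to 5.75 CPM in uninjured and 3.69 to 5.37 CPM in SCI mice (log2 fold change -0.08, edgeR adjusted p = 0.875). Cxcr2, a receptor of neutrophils, was at 0.281, 0.225, 0.445 and 0.157 CPM in uninjured mice and 0.269, 0.892, 0.996 and 0.315 CPM after SCI. Its groups overlapped, with SCI mice 2 and 3 above the rest (log2 fold change 1.22, standard error 0.48, edgeR adjusted p = 0.274). Cxcl16 had a log2 fold change of -0.08 (adjusted p = 0.857), and Cxcl10, an interferon-induced ligand, ranged over 0.842 to 2.30 CPM and 0.486 to 1.93 CPM (log2 fold change -0.60, edgeR adjusted p = 0.542).

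Cx3cr1 was at 6.92, 6.55, 6.07 and 5.14 CPM in uninjured mice and at 4.34, 3.21, 3.71 and 4.86 CPM after SCI. The groups did not overlap, although uninjured mouse 4 and SCI mouse 4 were close (log2 fold change -0.62, standard error 0.15, edgeR adjusted p = 0.0871). The annotated span of Cx3cr1, chr9:119901616-120069879, takes in other genes on both strands. The counting set ambiguous reads apart, 2.79% to 3.13% of reads in whole DRG, and these were left out. Its other settings for overlaps are not given in the sources used here. The part of those genes in the Cx3cr1 values was not tested. Its ligand Cx3cl1, made by neurons, had means of 4.11 ± 0.632 and 3.64 ± 0.557 CPM (SD, n = 4 each, log2 fold change -0.17, edgeR adjusted p = 0.669).

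None of the 4 atypical receptors passed in edgeR or in DESeq2, and 1 of them had an unadjusted p-value under 0.05. Ackr2, a scavenger of inflammatory CC chemokines (chr9:121898355-121911074, plus strand), was at 0.234, 0.293, 0.314 and 0.210 CPM in uninjured mice and 0.404, 0.392, 0.417 and 0.720 CPM after SCI. Its groups did not overlap, on 5 to 18 reads per mouse, and SCI mouse 4 stood above the other 3 SCI mice (log2 fold change 0.81, standard error 0.29, edgeR adjusted p = 0.236). Ackr1 ranged over 24.7 to 30.9 CPM in uninjured and 23.6 to 39.0 CPM in SCI mice (log2 fold change 0.12, edgeR adjusted p = 0.749), and Ackr4, which takes up Ccl25 among others, had a log2 fold change of 0.33 (adjusted p = 0.563).

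**Figure D1:**
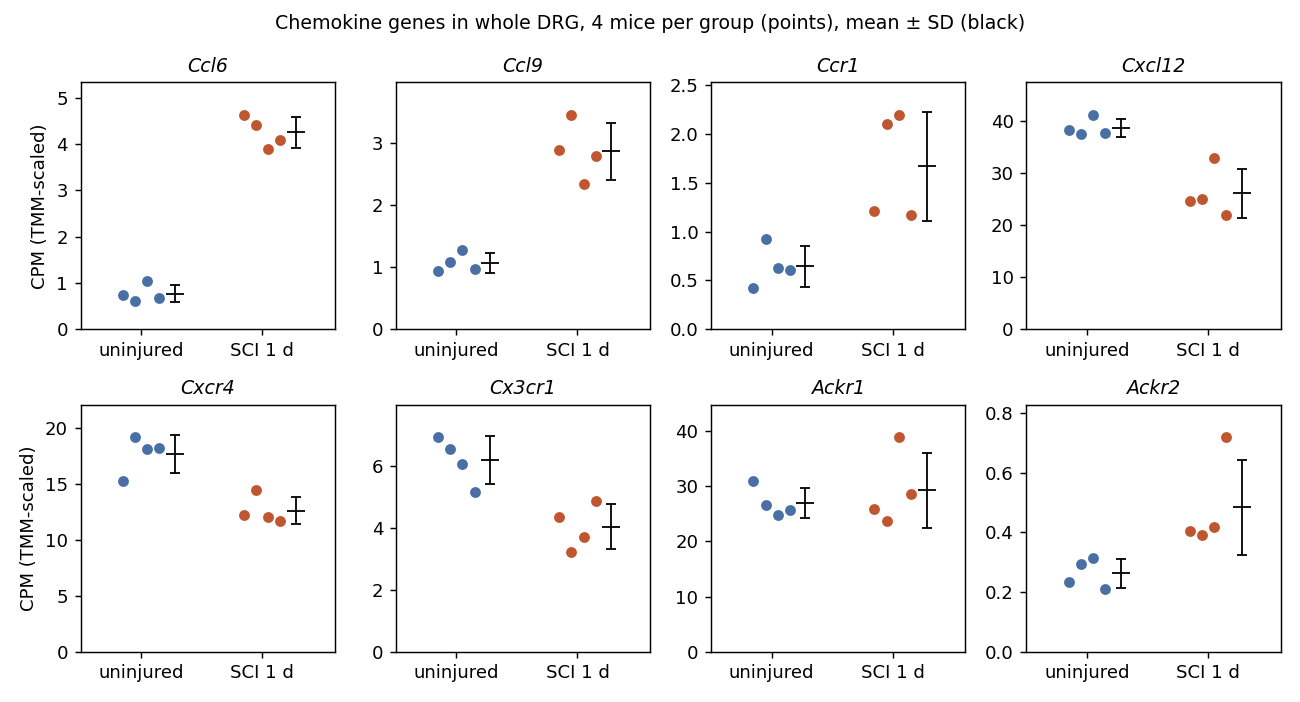
Each panel plots the CPM of 1 gene on its own axis from 0, with 1 point per mouse for 4 uninjured and 4 SCI mice and the mean ± SD in black. In Ccl6 the SCI mice sit between 3.89 and 4.64 CPM and the uninjured mice between 0.608 and 1.05, while Ackr1 overlaps.

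**Figure D2:**
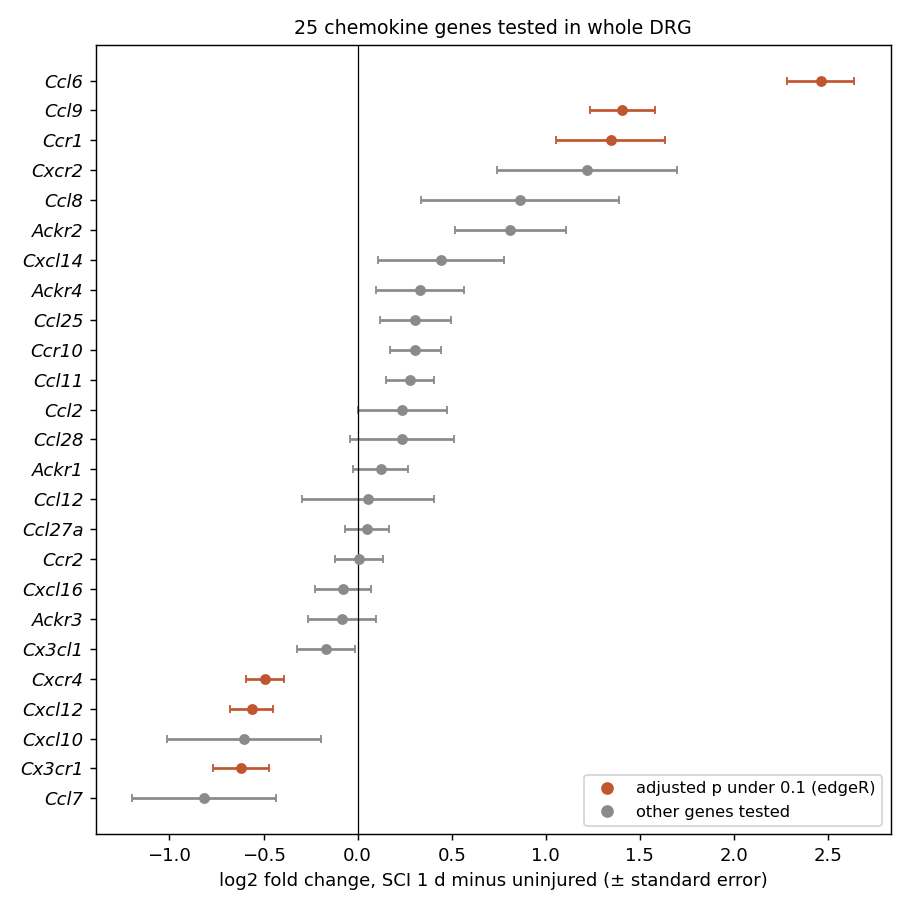
Points are the log2 fold changes (SCI minus uninjured) of 25 of the 26 tested chemokine genes in whole DRG, with bars of 1 standard error from the edgeR fit. The 6 genes that passed are coloured, from Ccl6 at 2.46 down to Cx3cr1 at -0.62.

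Leaving out 1 mouse at a time left 2 to 5 of the 6 calls, and no direction turned. Ccl6 and Ccl9 passed in all 8 of these fits, at adjusted p-values of at most 0.00271 and 0.037 (edgeR). Ccr1 passed in 5 of them, and Cxcl12 and Cxcr4 in 3 each. Cx3cr1 passed in 1, without SCI mouse 4. The number of calls was 2 without uninjured mouse 3 or 4 and 3 without uninjured mouse 2, SCI mouse 1 or SCI mouse 2. The share of all genes called moved as well, from 0.592% without uninjured mouse 3 to 3.67% without SCI mouse 3.

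Marker genes of other cells moved with the groups. The summed CPM of 10 macrophage markers was 81.7 to 107 in uninjured and 115 to 135 in SCI mice without overlap, and 2 of the 10 rose, Cd163 from 4.58 to 6.75 CPM to 9.10 to 11.4 CPM, and Itgam from 0.446 to 0.837 CPM to 1.26 to 1.89 CPM. All 10 had a log2 fold change above 0 while the macrophage gene Cx3cr1 fell. Red blood cell markers summed to 13.4 to 21.3 and 20.7 to 88.6 CPM, with 4 of 5 called higher, and B cell markers to 20.3 to 33.2 and 15.7 to 18.0 CPM. Neutrophil markers (12.0 to 24.4 and 7.92 to 48.5 CPM), monocyte markers (9.36 to 13.2 and 8.05 to 17.6 CPM) and endothelial markers (83.1 to 98.1 and 72.4 to 121 CPM) overlapped between the groups. So did glial markers (6839 to 7155 and 5645 to 7014 CPM), neuronal markers (16760 to 18790 and 16470 to 17290 CPM) and fibroblast markers (419 to 722 and 398 to 709 CPM). Markers of T cells, NK cells, mast cells and adipocytes summed to at most 4.17 CPM in any mouse, and none of them passed in edgeR or DESeq2, with 2 of 8 tested at an unadjusted edgeR p-value under 0.05. No gene of these lists was at 0 in all 8 libraries, and their part in the chemokine changes was not tested.

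The rest of the pathway showed no call in whole DRG. Of 44 other genes tested, none passed in edgeR or DESeq2, and 8 had an unadjusted edgeR p-value under 0.05, against 14.6% of all genes. They were 29 genes of receptor signalling such as G protein subunits, arrestins and kinases (5 of the 8), 7 genes of enzymes that cut or shed chemokines (2 of the 8), and 8 other chemoattractants and their receptors (1 of the 8).

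The sequence before the start of 4 genes is shown because the Ccr1 ligands Ccl6 and Ccl9 rose and both Cxcl12 and its receptor fell. The 250 bases upstream of the RefSeq gene start (GRCm38.p6) are given 5′ to 3′ on the gene's own strand, at chr11:83593088-83593337 (minus) for Ccl6, chr11:83578637-83578886 (minus) for Ccl9, chr6:117168285-117168534 (plus) for Cxcl12 and chr1:128592300-128592549 (minus) for Cxcr4. Capitals mark matches, on either strand, to any of 5 short patterns that are spelled out after the sequences.
Ccl6: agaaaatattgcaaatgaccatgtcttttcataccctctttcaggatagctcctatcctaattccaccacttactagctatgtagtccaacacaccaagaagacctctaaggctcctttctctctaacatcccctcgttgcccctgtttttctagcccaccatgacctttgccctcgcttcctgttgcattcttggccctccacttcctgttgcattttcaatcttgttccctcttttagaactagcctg
Ccl9: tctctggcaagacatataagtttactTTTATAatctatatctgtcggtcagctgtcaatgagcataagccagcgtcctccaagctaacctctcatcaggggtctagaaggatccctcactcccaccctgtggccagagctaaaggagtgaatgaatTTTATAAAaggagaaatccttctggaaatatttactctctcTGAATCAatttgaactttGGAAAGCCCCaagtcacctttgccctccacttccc
Cxcl12: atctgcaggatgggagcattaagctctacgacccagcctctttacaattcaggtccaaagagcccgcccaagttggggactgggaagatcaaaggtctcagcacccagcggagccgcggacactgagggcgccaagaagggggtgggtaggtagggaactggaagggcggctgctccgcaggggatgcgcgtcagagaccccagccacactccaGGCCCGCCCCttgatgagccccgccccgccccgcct
Cxcr4: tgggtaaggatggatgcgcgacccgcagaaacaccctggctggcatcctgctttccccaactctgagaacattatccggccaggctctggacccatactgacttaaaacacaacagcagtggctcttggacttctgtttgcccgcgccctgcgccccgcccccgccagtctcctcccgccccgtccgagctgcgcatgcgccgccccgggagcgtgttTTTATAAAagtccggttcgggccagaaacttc
Within this window Ccl6 held no match, and Ccl9 held 1 for NF-kB at bases -35 to -26, 1 for AP-1 at -53 to -47 and 3 for the TATA box, of which 2 overlap in 1 run of capitals. Cxcl12 held 1 match for NF-kB at -36 to -27, and Cxcr4 held 2 overlapping matches for the TATA box at -32 to -25. The loose NF-kB pattern searched was GGGNNNNNCC, which 45.4% of 27025 promoters of the same length held, and 22 of the 40 chemokine and receptor promoters found in the table. AP-1 was searched as TGANTCA, held by 6.87% of all and by 4 of the 40. For the myeloid factor PU.1 the letters were GAGGAAG, with 10.4% of all and 6 of the 40. The core bound by hypoxia-inducible factors, ACGTG, was in 16.6% of all and 4 of the 40, and the TATA box, TATAAA, in 13.0% of all and 11 of the 40.

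In FACS neurons, 51 of the 54 genes had at least 1 read, and 5 of them were read in all 22 mice: Ackr1, Ccl2, Ccl7, Ccl25 and Ccl27a. The 3 genes without a read were Ccl26, Ccr8 and Xcl1, where 3 reads would be 0.0359 to 0.0983 CPM in a mouse. FACS levels are CPM of the reads on genes of that mouse or well. Before these levels are read, the wells need a description. In 46 of the 66 wells, 9 marker genes of satellite glia and Schwann cells took 0.169% to 1.29% of reads and 7 neuronal markers took 0.944% to 3.40%. In the other 20 wells, from 14 mice, the glial genes took 3.21% to 14.5% and the neuronal genes 0.00673% to 1.47%. The limit of 2% between them was set after this gap was seen, and the 20 are called glia-rich wells. All 3 wells of SNI 3d mouse 3 and of SCI 3d mouse 3 were glia-rich. The labels also divide the wells into 2 library sets, a first one of 36 wells from 12 mice and a second one, with a year in its name, of 30 wells from 10 mice, and every group has mice in both.

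Ackr1 was the chemokine gene found most evenly in the sorted neurons. Its level was 16.0 to 98.2 CPM in the 6 naive mice, with a median of 85.4. It was at 63.7, 77.0, 67.1 and 93.8 CPM in SNI 1d mice and at 115, 122, 99.4 and 87.2 CPM in SNI 3d mice. SCI 1d mice had 89.2, 78.9, 66.4 and 104 CPM, and SCI 3d mice 122, 114, 1.72 and 72.2 CPM. The groups overlapped, and the lowest values were those of SCI 3d mouse 3 and of naive mice 5 and 6, each with 2 or 3 glia-rich wells. The log2 fold changes against naive mice lay between -0.07 and 1.00, with edgeR adjusted p-values from 0.471 to 1.00. By well, Ackr1 was at 11.02 to 185 CPM in the 46 other wells, with a median of 103, and at a median of 0.534 CPM in the 20 glia-rich wells, of which 7 reached 1 CPM. The 2 highest glia-rich wells, well b of SNI 3d mouse 3 at 348.9 CPM and well c of SCI 1d mouse 1 at 194 CPM, lay above all other wells. In 11 of the 12 mice that had both kinds, the mean of the other wells was above that of the glia-rich wells.

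Ackr1 shares exon bases with a neighbouring gene. Of the 1405 exon bases of Ackr1 (chr1:173331886-173333750, minus strand), 361, or 25.7%, lie within an exon of Cadm3 on the same strand. Cadm3 encodes a cell adhesion protein of neurons. In whole DRG Cadm3 stood at 512 to 717 CPM, and Ackr1 was 4.48% to 5.58% of it in every mouse. In the 46 other wells Cadm3 had a median of 93.1 CPM (40.4 to 575), and Ackr1 was 18.8% to 260% of it, with a median of 104%. Across these 46 wells the log2 levels of the genes had a Pearson's r of 0.44 and a Spearman's rho of 0.37, a description over wells that share mice. In glia-rich wells the median of Cadm3 was 57.0 CPM. Reads of the 2 genes cannot be told apart where they overlap. The counting set ambiguous reads apart, 2.79% to 3.13% of reads in whole DRG and 2.1% to 4.3% in wells, and these were left out. The part of Cadm3 in the Ackr1 values was not tested.

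Ccl25 and Ccl27a, like Ackr1, had higher medians in the other wells than in the glia-rich wells, at lower levels than Ackr1. Ccl2, described below, stood between by this measure, with medians of 18.5 CPM in the other wells and 2.80 CPM in the glia-rich wells. Ccl25 had a median of 9.17 CPM in the 46 other wells and of 0 in the 20 glia-rich wells, and was higher in the other wells in 10 of 12 mice. Ccl27a had medians of 12.5 and 1.47 CPM, higher in the other wells in 9 of 12 mice, and 11 glia-rich wells reached 1 CPM. Single glia-rich wells held 52.66 CPM of Ccl25, and 41.92 and 36.92 CPM of Ccl27a. The highest other wells were at 56.75 CPM for Ccl25 and 32.51 CPM for Ccl27a. Over whole mice Ccl27a ranged from 2.08 CPM in naive mouse 5 to 23.8 CPM in SCI 1d mouse 4. Naive mice held Ccl25 at 0.158 to 14.8 CPM, and its log2 fold change was 2.20 at SNI 1d (standard error 0.98, adjusted p = 0.323 by edgeR) and 2.33 at SCI 3d (standard error 1.07, adjusted p = 0.507). Without the glia-rich wells the median of Ccl25 per mouse was 3.604 CPM in 6 naive mice, and 12.2 CPM at SNI 1d, 10.6 at SNI 3d, 12.1 at SCI 1d and 13.2 at SCI 3d, where its highest naive mouse, at 14.6 CPM, lay within the range of every injured group. Both genes overlap a gene on the opposite strand, Ccl25 by 204 bases with Elavl1 and Ccl27a by 8 bases with Il11ra1, and the strand setting of the counting is not given in the sources used here. Ccl27a also has near-identical copies in the mouse genome, so its counts are uncertain.

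The monocyte attractants Ccl2 and Ccl7 were read in every mouse but varied by orders of magnitude. Ccl2 was at 6.25 to 79.3 CPM in naive mice, with a median of 30.9. It was at 56.3, 32.9, 9.77 and 68.6 CPM at SNI 1d, 43.2, 11.7, 130 and 9.55 CPM at SNI 3d, and 43.2, 42.7, 13.1 and 13.8 CPM at SCI 1d. SCI 3d mice had 3.18, 35.2, 3402 and 57.2 CPM, and the third of these mice held 80.6% of all Ccl2 signal in the experiment. Ccl7 was at 0.0868 to 126 CPM in naive mice, with a median of 5.68, and at 30.8, 82.5, 41.6 and 12.8 CPM at SNI 1d. It was at 117, 8.00, 1.04 and 13.6 CPM at SNI 3d, at 18.2, 0.0265, 1.30 and 2.29 CPM at SCI 1d, and at 1.39, 1.99, 620.0 and 20.0 CPM at SCI 3d. The groups overlapped for both genes. The largest log2 fold change of Ccl7 was 4.16 at SNI 3d (standard error 1.72, edgeR adjusted p = 0.311), and that of Ccl2 was 1.92 at SCI 3d (standard error 1.26, adjusted p = 0.625). In the wells that were not glia-rich, the mouse means of Ccl7 were 0.0413 to 19.8 CPM in naive mice, 9.15 to 89.0 at SNI 1d, 8.48 to 127.5 at SNI 3d, 0 to 19.1 at SCI 1d and 1.38 to 28.3 at SCI 3d. Those of Ccl2, in the same order, were 0.194 to 80.8, 13.9 to 84.5, 9.41 to 43.9, 13.6 to 54.0 and 4.43 to 79.7 CPM. The ranges of every injured group overlapped those of naive mice for both genes.

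**Figure D3:**
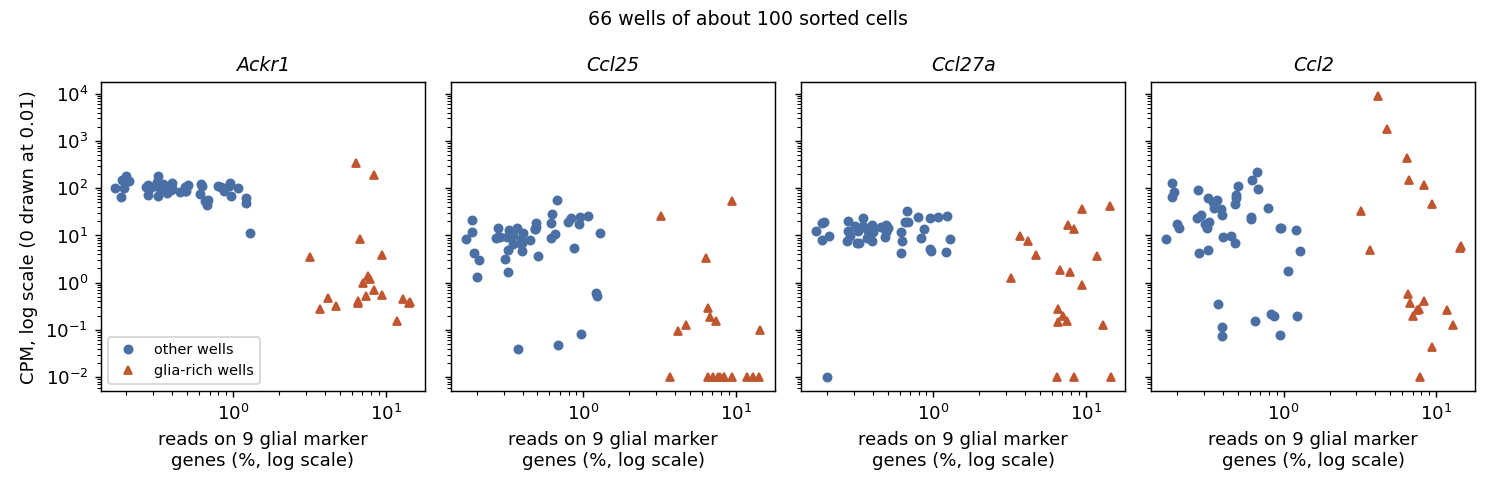
Each point is 1 of 66 wells, with the share of reads on 9 glial marker genes on the horizontal log axis and the CPM of Ackr1, Ccl25, Ccl27a or Ccl2 on the vertical log axis (0 drawn at 0.01). The 46 other wells hold Ackr1 between 11.02 and 185 CPM, whereas most of the 20 glia-rich wells lie under 1 CPM.

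In the fit with 2 RUVr factors (factors of unwanted variation), 43 of the 54 genes were tested among 23507 genes. Against naive mice, 2 of them were called at SNI 1d (0.519% of all genes), 3 at SNI 3d (0.442%), 1 at SCI 1d (0.0468%) and 2 at SCI 3d (0.051%), and all were higher. The 4 comparisons share the 6 naive mice. The genes were Cxcl2, a neutrophil attractant that acts through Cxcr2, in all 4 comparisons, Ccl11 in all but SCI 1d, and Ccl3, a ligand of Ccr1, at SNI 3d. No member passed between SNI and SCI at the same day (0.0% of all genes at 1 day and 0.0% at 3 days, edgeR). Without adjustment, 17 members at 1 day and 6 at 3 days had an edgeR p-value under 0.05, against 10.1% and 8.15% of all genes, and DESeq2 called 8 and 3, against 4.67% and 3.63%. Some of these members shared a single high mouse and others did not, and no change of the family is read from the counts. At 1 day, Cxcl2, Ccl6, Ccr2 and Ccl9 were at 258, 192, 150 and 74.4 CPM in SNI 1d mouse 3. The other SNI 1d mice had at most 2.52 CPM of each. None of these genes was among the 8 DESeq2 calls at 1 day. Cxcl10 and Cxcl16, under 0.05 and called by DESeq2, were higher in every SNI 1d mouse than in every SCI 1d mouse. Cxcl10 was at 2.63 to 28.1 CPM at SNI 1d and at most 0.411 at SCI 1d (edgeR adjusted p = 0.451). Cxcl16 was at 0.557 to 3.75 CPM at SNI 1d and at most 0.0785 at SCI 1d (edgeR adjusted p = 0.454). The part of single mice in the counts was not tested.

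The reads behind the edgeR calls of Cxcl2, Ccl11 and Ccl3 lay in few libraries. Cxcl2 was at 258 CPM in SNI 1d mouse 3 and 214 CPM in SCI 3d mouse 3, and at 0 to 1.80 CPM in the other 20 mice. Ccl11 was at 666 CPM in SCI 3d mouse 3 and 24.7 CPM in SNI 3d mouse 3, and the other mice had at most 1.90 CPM. Ccl3 was at 73.7 CPM in SCI 3d mouse 3 and at most 0.277 CPM elsewhere. In no group did all mice hold any of these 3 genes. The first library set had no read of Cxcl2, Ccl11 or Ccl3 in any of its 36 wells, whereas reads were found in 26, 16 and 12 of the 30 wells of the second set. The fitted log2 fold changes, 32.16 to 39.28 for Cxcl2 (edgeR adjusted p = 0.00406 to 0.0413) and 21.00 to 23.30 for Ccl11 (0.0288 to 0.0352), are larger than the counts could hold. The ratio of the highest mouse to 1 read in the deepest mouse was 14.4 for Cxcl2 and 15.8 for Ccl11 on the log2 scale. No fold of these genes is read from the fit. For Ccl3 at SNI 3d the fitted log2 fold change was 8.12 (edgeR adjusted p = 0.0852), under its ratio of 12.6. That call rested on 12 and 14 reads in SNI 3d mice 3 and 4. Ccl3 met the filter of 20 reads only through SCI 3d mouse 3. With no RUVr factors, with 1 factor, with factors from uncentred residuals, with the library set in their place or within either library set alone, no member passed in any of the 4 comparisons in edgeR. At most 0.0874% of all genes passed in any of those fits. Without naive mouse 6 the members called numbered 6 at SNI 1d, 7 at SNI 3d, 3 at SCI 1d and 4 at SCI 3d. The shares of all genes called in these fits were 0.644%, 3.03%, 0.128% and 0.166%. Without SCI 3d mouse 3 none was called at SCI 3d (0% of all genes), and without SNI 1d mouse 3 only 1 was called at SNI 1d (0.0644%).

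Reads of the receptors of the called ligands lay in few mice. Cxcr2 averaged 0.0260 CPM over the 22 mice, with reads in 4 of them, and Ccr3, the Ccl11 receptor, 0.0169 CPM, with reads in 1. Ccr1 averaged 5.63 CPM with a median of 0, and stood at 69.6 CPM in naive mouse 6, 52.5 CPM in SCI 3d mouse 3 and at most 0.651 CPM in the other 20 mice. Of the genes that changed in whole DRG, Cxcl12 was nearly absent from FACS neurons, at no more than 0.0791 CPM in any mouse. Cxcr4 reached 10.7 CPM in SNI 3d mouse 3 and had a median of 0.379 CPM over mice. Cx3cr1 was at 1.44, 3.45, 83.7 and 0.658 CPM in SNI 3d mice and at most 0.0508 CPM in naive mice. Its log2 fold change there was 8.47 (standard error 2.03, edgeR adjusted p = 0.105). It was at 0 to 2.75 CPM at SNI 1d, 0 at SCI 1d and 0 to 57.7 at SCI 3d. DESeq2 called Cx3cr1 against naive mice at SNI 1d, SNI 3d and SCI 3d, beside 6.16%, 9.14% and 4.73% of all genes.

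**Figure D4:**
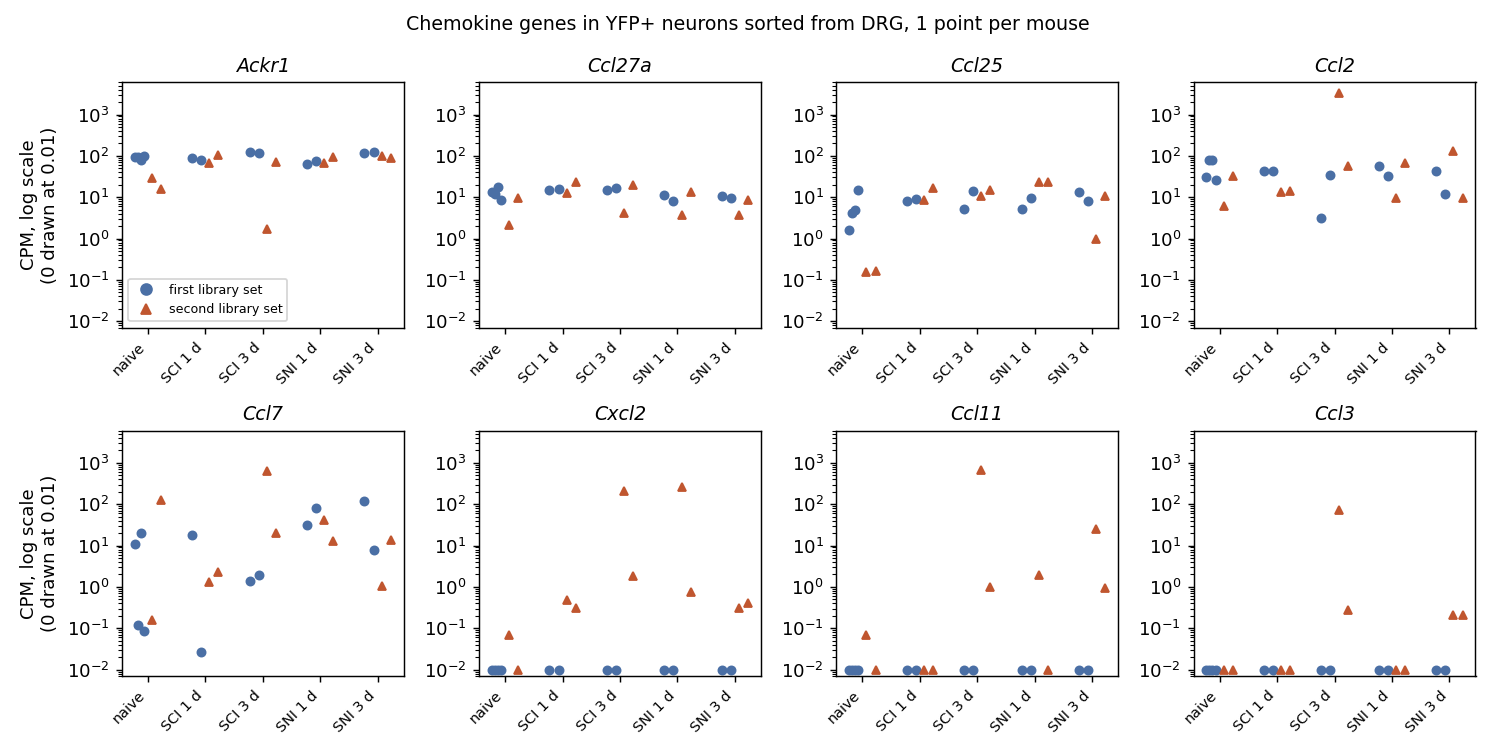
Each point is the CPM of 1 of 22 mice on a log axis (0 drawn at 0.01), by group, with circles for the first library set and triangles for the second set. Ackr1 forms a band in all groups, while Cxcl2, Ccl11 and Ccl3 are at 0 in every mouse of the first set and reach 258, 666 and 73.7 CPM in single mice.

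A few wells of the second set held most of the myeloid chemokines. In well c of SCI 3d mouse 3, 17 members reached 10 CPM, among them Ccl2 at 1815 CPM, Cxcl2 at 756.6, Ccl6 at 511.4, Ccl3 at 294.8, Cx3cr1 at 230.6 and Ccr1 at 210.2. Macrophage markers summed to 15070 CPM in that well, of which Lyz2 made up 11930, with Csf1r at 264.9 and Adgre1 at 357.3, and fibroblast markers to 29840 CPM. Well a of the same mouse led with Ccl2 at 8819 CPM, Ccl11 at 1830 and Ccl7 at 1807, with macrophage markers at 9.41 CPM in sum and fibroblast markers at 43370 CPM. Well b of SNI 1d mouse 3 held Cxcl2 at 873.4 CPM, Ccl6 at 650.8, Ccr2 at 493.2 and Ccl9 at 251.9, with a macrophage sum of 1693 CPM.

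Naive mouse 6 had such wells too. Its well b held Ccr2 at 574.8 CPM, Ccl7 at 460.1 and Ccl22, an attractant of T cells made by macrophages and dendritic cells, at 387.7, with a macrophage sum of 2678 CPM. Its well c held Ccl4, an attractant of T cells and monocytes, at 2151 CPM and Ccl22 at 381.3, with a macrophage sum of 388.4 CPM. Over the 46 other wells the macrophage sum was at most 48.9 CPM, with a median of 6.32. The median of the 20 glia-rich wells, 5.97 CPM, was no higher, so that the high sums lay in a few of them. The link was not strict, since well b of naive mouse 5 had a macrophage sum of 1878 CPM and 1 member at 10 CPM or more. Cxcl1, a neutrophil attractant, peaked in a well of the first set, at 398 CPM in well a of naive mouse 2. The part of these cell types in the calls was not tested.

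Low reads of the same genes were spread over the rest of the second set. Ccl6 had reads in all 30 of its wells, at a median of 0.305 CPM and 4 wells of 10 CPM or more, and in 1 of the 36 wells of the first set. Ccl9 had reads in 26 of 30 wells and in 0 of 36, Ccr2 in 24 of 30 and 3 of 36, Ccr1 in 19 of 30 and 1 of 36, and Ccl4 in 15 of 30 and 0 of 36. The call of Cxcl2 at SCI 1d rested on such values, 23 reads in SCI 1d mouse 3 and 20 in mouse 4. How the wells were indexed is not given in the sources used here, and the part of reads carried over from the high wells was not tested. The library set and the presence of the few high wells cannot be told apart here.

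Beyond the 54 genes, 48 pathway genes were tested in FACS neurons. The platelet chemokine Pf4, whose symbol does not carry the family prefix, was the 1 gene called at SNI 1d and at SNI 3d (edgeR adjusted p = 0.0157 and 0.0733). It had reads in 2 of the 4 mice of each injured group, up to 5.51 CPM at SNI 1d, 38.2 at SNI 3d and 30.7 at SCI 3d, and at most 0.0175 CPM in naive mice. In edgeR none passed at SCI 1d or SCI 3d, with 5 and 3 at an unadjusted p-value under 0.05 (11.2% and 9.56% of all genes). DESeq2 called 4 at SNI 1d and 4 at SNI 3d, against 6.16% and 9.14% of all genes. It called 0 at SCI 1d and 0 at SCI 3d, against 4.61% and 4.73%. Pf4 was among the DESeq2 calls at SNI 1d and not at SNI 3d.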

How the data were processed

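RNA was sequenced from 8 whole DRG libraries and 66 FACS wells. Per the labels and the study's methods, the authors trimmed reads (Cutadapt, PRINSEQ), used STAR 2.5.3a with GRCm38 and counted per gene with HTSeq 0.6.1. The deposited values are read counts without normalization. Lines that name no gene, 33.1% to 37.03% of reads in whole DRG and 42.6% to 66.86% in wells, were left out. Deposited tables of the authors' DESeq2 comparisons (base means, log2 fold changes, p-values) were not used, nor their 123 columns of normalized values per library. The values of 1 chemokine receptor are not reported here singly or drawn, and it stays in the counts. The whole DRG libraries after SNI were not analysed here, since their columns match no sample.

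Symbols, coordinates and exon lengths were those of GENCODE vM21, found for 53274 genes. Whole DRG was tested with edgeR (quasi-likelihood F-test, TMM scaling) on genes that averaged 10 reads or more, and its CPM are TMM-scaled. The 3 technical wells of each FACS mouse were added up, and a gene needed 20 reads in 1 mouse or more. Their edgeR model carried 2 RUVr factors, taken from centred deviance residuals of an initial model. Adjustment was by Benjamini-Hochberg over all genes tested, with a threshold of 0.1. Alternatives were DESeq2, its size factors, other filters and covariates, a replicate block, wells and mice left out, and a threshold of 0.05. Fits within each library set were added after the data were seen. Fits were tested on simulated data. Limits from read numbers cover counting error only. Tools were edgeR 4.0.16 and DESeq2 1.42.0 (R 4.3.3), pandas 2.3.3, numpy 2.4.6 and matplotlib 3.10.9 (Python 3.11.15).

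Genes described singly are those called in any comparison and their known partners, the 12 with the highest uninjured level per length, the tested genes whose SCI and uninjured mice did not overlap, and the 10 with the highest mean in FACS neurons. Other genes given singly, such as Ccl8, Ccl28, Cxcl10, Ackr4 and Ccl25, were chosen after their values were seen. The members and the lists of pathway and marker genes were chosen with earlier results of these data known. Deviations of same-numbered libraries correlated over 0.1 in 1 of 4 pairs in whole DRG (median 0.0109, other pairs -0.0204) and in 26 of 48 in FACS neurons (median 0.115, other pairs -0.0466). Since not every pair did, the numbers were not taken to pair the mice. Every pair of libraries of a group differed by more than counting noise.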

Additional observations from a re-analysis of the deposited data

Results flagged for a closer look

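The values below come from mice that stood apart from the other mice of their group by the gap between the highest mouse and the next, relative to the range of the group (Dixon's criterion). It was applied to 82 combinations of gene and group, of which 28 met it, 1 in whole DRG and 27 in FACS neurons. The 10 FACS genes were those with the highest mean over mice, which a single high mouse can set. The number that met it is therefore not weighed against chance. In whole DRG, Ackr2 was highest in SCI mouse 4, at 0.7195 CPM.

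SCI 3d mouse 3 was the mouse apart for 8 genes: Ccl2 at 3402 CPM, Ccl11 at 666.3, Ccl7 at 620.0, Cxcl2 at 213.9, Cxcl1 at 129.7, Ccl6 at 127.8, Ccl4 at 51.12 and Ccr2 at 30.76. Naive mouse 6 was apart for 5 genes, with Ccl4 at 864.2 CPM, Ccl22 at 259.4, Ccr2 at 157.7, Ccl7 at 126.3 and Ccl6 at 99.62. SNI 1d mouse 3 was apart with Cxcl2 at 258.0 CPM, Ccl6 at 192.3, Ccr2 at 150.3, Ccl4 at 8.318 and Ccl11 at 1.904. SNI 3d mouse 3 was apart with Ccl11 at 24.74 CPM and Ccl4 at 0.1541. All 4 mice belong to the second library set and had at least 1 glia-rich well.

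The remaining values were those of Cxcl1 in naive mouse 2 (62.66 CPM) and SNI 1d mouse 1 (41.42 CPM), of Ccl7 in SNI 3d mouse 1 (116.8 CPM) and SCI 1d mouse 1 (18.22 CPM), of Ccl22 in SNI 1d mouse 4 (2.13 CPM), and of Ccl11 and Cxcl2 in naive mouse 5 (0.07004 CPM each).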

How the results depend on the processing

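In whole DRG the number of chemokine genes called was 6 with DESeq2, with DESeq2's size factors and without a filter on counts. The shares of all genes called in these fits were 5.27%, 2.32% and 1.56%. At a mean count of 50 the number was 5, against 2.53% of all genes. At an adjusted p-value under 0.05 it was 3 (Ccl6, Ccl9 and Cxcl12), against 202 of the 17616 genes tested. With 1 mouse left out the number of chemokine genes called was 2 to 5, against 0.592% to 3.67% of all genes. With the replicate block it was 4 (Ccl6, Ccl9, Ccr1 and Cxcl12), against 0.721% of all genes, and the labels' numbers were not taken to pair the mice. DESeq2 called 929 of all genes where edgeR called 408.

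In FACS neurons the counts against naive mice were 2 at SNI 1d, 3 at SNI 3d, 1 at SCI 1d and 2 at SCI 3d, an order kept for the numbers that follow. Each of the 4 was 0 without RUVr factors, with 1 factor, with uncentred factors, with the library set or the replicate block in their place, and within either library set alone. In those fits 0% to 0.0874% of all genes were called, so a count of 0 is not particular to these genes. DESeq2 called 8, 11, 7 and 5 (6.16%, 9.14%, 4.61% and 4.73% of all genes), and 8 and 3 between SNI and SCI at 1 and 3 days (4.67% and 3.63%), where edgeR called 0. With at least 20 reads required in 4 mice, Cxcl2 and Ccl11 were called at SNI 1d and SNI 3d, and Cx3cr1 at SNI 3d. The counts were then 2, 3, 0 and 0, against 0.648%, 1.22%, 0.0115% and 0% of all genes. Without the glia-rich wells they were 5 (Cxcl2, Ccl9, Ccr2, Ccl6 and Ccl5), 4 (Cxcl2, Ccl6, Ccl5 and Ccr7), 0 and 0, against 6.47%, 4.99%, 0.0354% and 0% of all genes. With 1 mouse left out they were 1 to 6, 2 to 7, 0 to 3 and 0 to 4, highest in all 4 without naive mouse 6, and 0 to 0 between the injuries. Without naive mouse 6, 0.644%, 3.03%, 0.128% and 0.166% of all genes were called. SNI 1d had 1 without SNI 1d mouse 3 (0.0644% of all genes) and 5 without SNI 3d mouse 3 (1.82%). SCI 1d had 0 without naive mouse 3 or 5, SNI 1d mouse 2, SCI 1d mouse 1, 3 or 4, or SCI 3d mouse 4. SCI 3d had 0 without naive mouse 5, SCI 3d mouse 3 or 4, or SNI 3d mouse 3, and 1 without naive mouse 3 or SNI 1d mouse 3. The cause of these shifts was not tested.

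Of the log2 fold changes of single genes under the alternatives, 1045 kept their direction and side of the threshold, 117 lost the call, 3 gained it and 72 without a call changed sign or came out at 0. None that was called changed its sign. Few reads limit the low genes of whole DRG, and the number of mice and the few libraries with high values limit the FACS results.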
